A study of Sus scrofa domesticus with 6 samples.

Results

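The genes described here are the nuclear genes for subunits of the oxidative phosphorylation machinery, measured in the mandibular condyle of pig embryos at 45 and 85 days. They are the rows of the deposited gene table, outside the mitochondrial chromosome, whose names follow the naming of respiratory complex subunits (NDUF, SDH, UQCR, CYCS, COX4 to COX8 and ATP5 names), without the NDUFAF assembly factors. This gave 63 of 25322 rows: 29 genes of complex I, 4 of complex II, 4 of complex III, the gene of cytochrome c, 14 of complex IV and 11 of complex V. No measured value was used to choose them, but the rule was set with earlier results of these data known. Of the 63 genes, 61 passed the filter on low counts and were tested. COX7C, with 57 counts over all libraries, and COX8C, with 0 counts, were not. Each of the 63 names had a single row. They do not cover every nuclear subunit: no row carried the name CYC1, UQCRB or COX6B1, for example.

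Both groups are miniature pig embryos, labelled Sus scrofa domesticus, and differ in age only as far as the labels go: 3 RNA-seq libraries of day 45 and 3 of day 85. The condyle is the joint head of the lower jaw, in which cartilage is replaced by bone during this period, and the series compares the ages across that ossification. The labels give the tissue as cartilage with chondrocytes and osteocytes as its source, and name no strain, sex, genotype or agent. They do not say whether the libraries of an age came from separate embryos or from pooled ones, so the p-values rest on the spread among these 6 libraries, which may be technical.

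Oxidative phosphorylation makes most of the ATP of cells that respire. Complex I takes electrons from NADH and complex II takes them from succinate, and both hand them to ubiquinone in the inner mitochondrial membrane. Complex III passes them on to cytochrome c, complex IV passes them to oxygen, and the proton gradient that complexes I, III and IV build drives the ATP synthase, complex V. All subunits of complex II are encoded in the nucleus, whereas the other complexes also contain subunits encoded by mitochondrial DNA. Chondrocytes live in poorly vascularised tissue and rely largely on glycolysis, while osteoblasts, osteoclasts and muscle fibres contain many mitochondria.

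The libraries held 12546729 to 16559616 counts. Replicate 2 of day 85 stood apart from the other libraries of its age. Its Spearman correlation across genes was 0.931 with replicate 1 and 0.938 with replicate 3, while those correlated at 0.98. With each day 45 library it correlated at 0.939. The label cartilage was checked against 8 chondrocyte markers, all of which were detected. Their summed level was 12252 to 14801 CPM (read counts scaled to library size, TMM-normalised) at day 45. At day 85 it was 1559, 5154 and 3286 CPM in replicates 1 to 3. Of 23 skeletal muscle markers, 19 were in the table and none of these was at 0 in every library. Their summed CPM was 10496, 5410 and 12322 in replicates 1 to 3 of day 45, and 49527, 3279 and 41016 in replicates 1 to 3 of day 85. The 8 osteoclast markers summed to 317 to 1353 CPM at day 45, and to 1923, 13642 and 2349 at day 85. The 7 neural markers found summed to 2063 CPM in replicate 2 of day 85 and to at most 305 in any other library. Replicate 2 of day 85 was therefore the lowest library for muscle markers and the highest for osteoclast and neural markers. Among the day 85 libraries it was also the highest for chondrocyte and osteoblast markers. These are bulk samples, in which fewer cells of a type and less RNA per cell cannot be told apart.

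The test for a difference between the ages was passed by 4 genes of the machinery, all of them higher at day 85: SDHA and SDHD of complex II, UQCRFS1 of complex III and COX7A1 of complex IV. Calls were made at a Benjamini-Hochberg adjusted p under 0.05 in edgeR's quasi-likelihood test over 15022 genes, of which 3.90% were called higher and 2.66% lower at day 85. No member was called lower. An unadjusted p under 0.05 was reached by 17 members with a higher and 1 with a lower level at day 85, against 15.8% and 13.3% of all tested genes. The calls were thus few, 4 of 61 tested members, and their share was not tested against that over all genes. Most other members leaned the same way: the log2 fold change of day 85 over day 45 was positive for 55 of 61 and negative for 6, with a median of 0.36, or 1.28-fold. The median over all tested genes was 0.02.

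**Figure D1:**
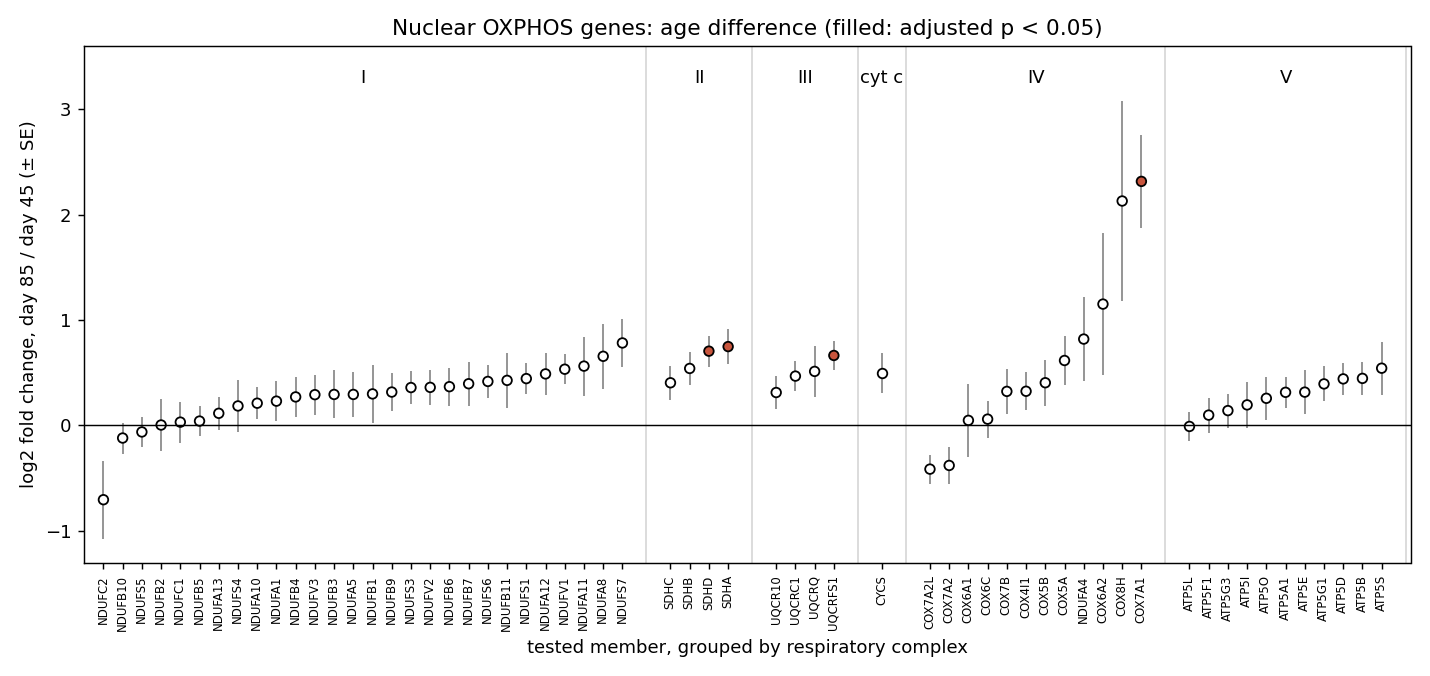
Log2 fold change of day 85 over day 45 (y axis) for 60 of the 61 tested genes, grouped by complex along the x axis. Points are edgeR estimates, bars are 1 standard error, and the 4 filled points are SDHD, SDHA, UQCRFS1 and COX7A1, which passed the threshold; COX7A1 was the highest at 2.32 and NDUFC2 the lowest at -0.70.

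The size of the difference depended on the library. Relative to the day 45 mean of each gene, the median log2 level over the 61 genes was 0.65 in replicate 1 of day 85, 0.04 in replicate 2 and 0.27 in replicate 3. In the day 45 libraries it was 0.10, -0.01 and -0.10. Replicate 1 was the highest of the day 85 libraries for 58 of 61 members, and replicate 2 the lowest for 47 of 61. Of the other members, SDHC and COX6A1 were highest in replicate 2 and NDUFC2 in replicate 3. The 18 tested skeletal muscle markers followed the same order of libraries, with replicate 1 highest for 16 and replicate 2 lowest for 18. All 18 were positive in the comparison of ages and 0 were called. Markers of some other cell types were also higher at day 85. Of 7 tested endothelial markers, 5 were called higher and 7 were highest in replicate 1, with a summed level of 284 to 533 CPM at day 45 and of 1434, 914 and 1063 CPM in replicates 1 to 3 of day 85. Calls were also made for 2 of 8 mural, 3 of 7 macrophage, 2 of 4 adipocyte and 2 of 6 erythroid markers, all higher, and for 3 of 8 chondrocyte markers, all lower. No osteoblast, osteoclast or neural marker was called. Of 7 osteoblast markers, 5 were positive and 2 negative. They summed to 3886, 4450 and 2199 CPM at day 45, and to 2412, 6625 and 2529 CPM in replicates 1 to 3 of day 85. The part of these cell types in the members' difference was not tested.

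**Figure D2:**
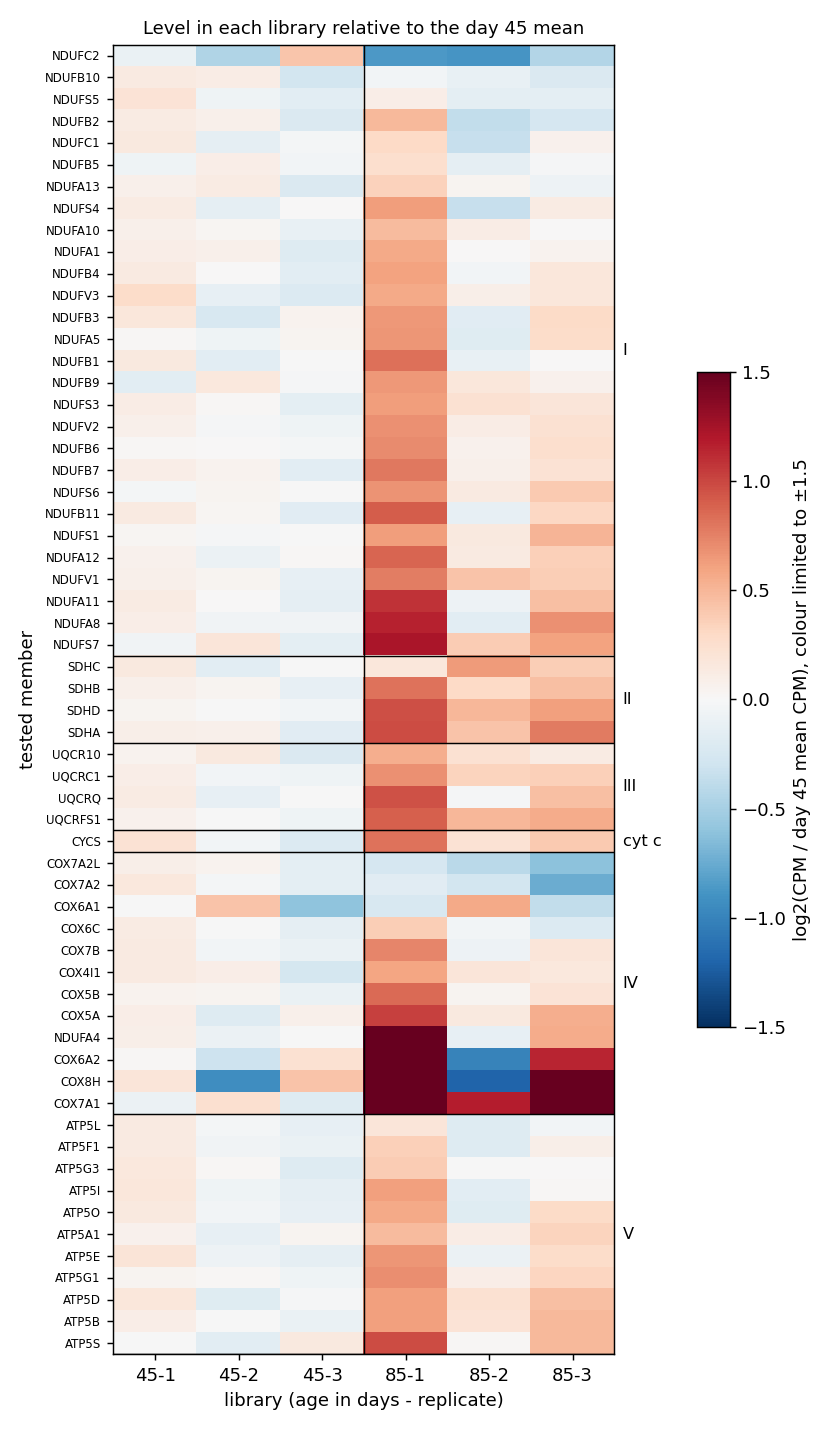
Level of 60 of the 61 tested genes (rows, grouped by complex) in each of the 6 libraries (columns, age in days and replicate), as log2 of its CPM over the day 45 mean, in colour limited to ±1.5. Most rows are darkest red in library 85-1, where the median was 0.65, and near white in 85-2, where it was 0.04; the rows of complex II are red in all 3 day 85 libraries.

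All 3 day 85 libraries lay above all 3 day 45 libraries for 23 of 61 members, and below them for 2. Over all tested genes these shares were 17.4% and 17.6%. Replicate 2 of day 85 taken alone exceeded every day 45 library for 27 of 61 members, against 35.5% of all tested genes. The 4 calls were kept without replicate 2 of day 85, where 24 members were called higher, beside 12.3% of 15271 tested genes. They were lost without each of the other 5 libraries in turn, where 0 members were called. Those 5 fits called few genes of any kind, 0 to 93 higher and 0 to 25 lower over the whole table, so a count of 0 there says nothing particular to the members. The median log2 fold change was 0.48 without replicate 2 of day 85 and 0.15 without replicate 1, with 45 of 61 members positive. DESeq2 called 14 members higher and 1 lower, beside 12.2% and 10.5% of 16842 genes.

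Complex II, succinate dehydrogenase, oxidises succinate to fumarate in the citrate cycle and feeds the electrons to ubiquinone. It showed the largest median of the complexes, a log2 fold change of 0.62, or 1.54-fold. SDHA and SDHD rose, and all 4 genes had day 85 libraries entirely above the day 45 libraries, replicate 2 included. Over all tested genes, 17.4% had this separation, and 35.5% had replicate 2 alone above every day 45 library. SDHA is the flavoprotein that binds succinate, and its gene lies on an unplaced scaffold. Its level was 104.8, 103.9 and 88.0 CPM at day 45, against 195.0, 133.2 and 170.1 CPM at day 85. Every day 85 library was above every day 45 library, with replicate 2 nearest to them. The mean rose from 98.9 ± 9.43 to 166.1 ± 31.1 CPM (SD, n = 3), a log2 fold change of 0.75 (SE 0.17, edgeR adjusted p = 0.0491).

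SDHD, on chromosome 9 from 44632244 to 44645594, encodes a membrane anchor of the complex that also holds its haem and ubiquinone site. Its level was 72.4, 70.0 and 68.2 CPM at day 45, against 136.7, 99.0 and 107.7 CPM at day 85. The day 45 libraries were close together, and the gap to the lowest day 85 library was wider than their range. The mean rose from 70.2 ± 2.10 to 114.4 ± 19.7 CPM (SD, n = 3), with a log2 fold change of 0.71 (SE 0.15, edgeR adjusted p = 0.0428). Without 1 library at a time, the adjusted p of SDHA ran from 0.0062 to 0.172 and that of SDHD from 0.0089 to 0.166, and both were under the threshold only without replicate 2 of day 85. Of the fits that kept all libraries, 9 also left SDHA uncalled, with adjusted p up to 0.0687, and 4 left SDHD uncalled, with adjusted p from 0.0574 to 0.0628.

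SDHB, the iron-sulfur subunit between the flavoprotein and the anchors, was at 86.9, 84.9 and 75.9 CPM at day 45, against 145.5, 101.9 and 113.1 CPM at day 85. Its log2 fold change was 0.54 (SE 0.16) with an edgeR adjusted p of 0.0856, so it was not called although the groups did not overlap. SDHC, the other membrane anchor, was at 79.4, 64.0 and 71.3 CPM at day 45, against 80.4, 111.7 and 92.2 CPM at day 85. It differed from its partners in the order of the day 85 libraries, with replicate 2 highest and replicate 1 lowest. Its log2 fold change was 0.41 (SE 0.16, edgeR adjusted p = 0.151). The median over the complex II genes in single libraries was 0.89 in replicate 1, 0.46 in replicate 2 and 0.54 in replicate 3 of day 85, all above the day 45 range of -0.08 to 0.08. Without replicate 1 of day 85 the median log2 fold change was 0.51, and without replicate 2 it was 0.72.

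Complex III, the cytochrome bc1 complex, had a median log2 fold change of 0.49, with 4 of 4 members positive and 1 called. UQCRFS1, on chromosome 6 from 34521339 to 34530722, encodes the Rieske iron-sulfur protein that takes electrons from ubiquinol. Its level was 106.4, 100.9 and 97.4 CPM at day 45, against 189.4, 143.9 and 149.6 CPM at day 85. The groups did not overlap, and replicates 2 and 3 of day 85 were close to each other. The mean rose from 101.6 ± 4.53 to 161.0 ± 24.8 CPM (SD, n = 3), a log2 fold change of 0.66 (SE 0.14, edgeR adjusted p = 0.0433). The adjusted p ran from 0.0118 to 0.166 over the fits that left out 1 library, and was under the threshold only without replicate 2 of day 85. The call was also lost in 4 fits that kept all libraries, with adjusted p from 0.0573 to 0.0627.

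UQCRC1, a core protein of the complex, was at 185.1, 167.1 and 164.9 CPM at day 45, against 278.2, 217.2 and 220.2 CPM at day 85, without overlap. Its log2 fold change was 0.47 (SE 0.14, edgeR adjusted p = 0.0888). The small subunits overlapped between the ages: UQCRQ had a log2 fold change of 0.51 (SE 0.24) and UQCR10 of 0.31 (SE 0.16). Cytochrome c is the soluble carrier between complexes III and IV, and its gene CYCS was at 70.1, 58.4 and 52.0 CPM at day 45, against 105.8, 70.1 and 78.9 CPM at day 85. Its lowest day 85 library was level with its highest day 45 library to the precision printed, and the log2 fold change was 0.50 (SE 0.19, edgeR adjusted p = 0.148).

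**Figure D3:**
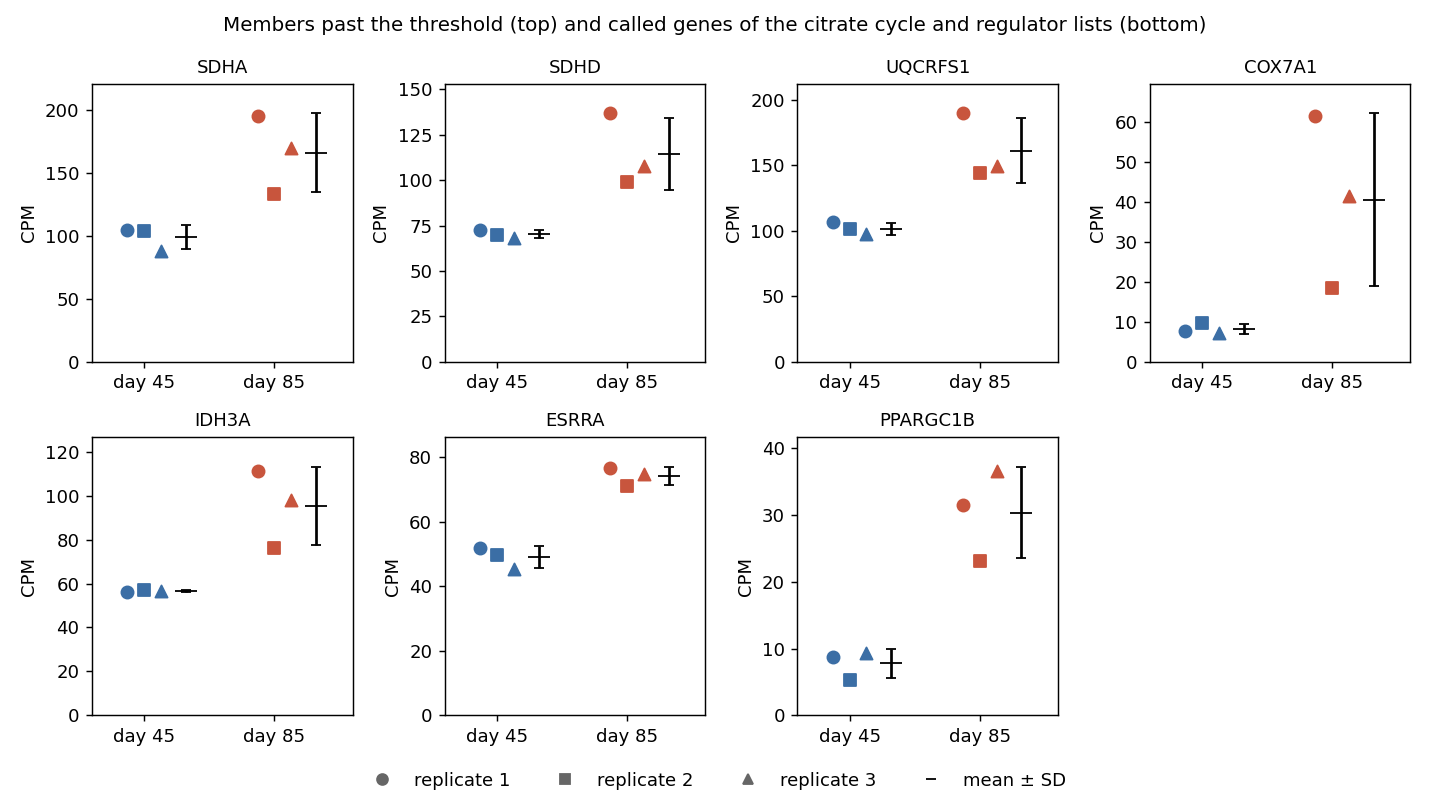
CPM in each library (points, shape by replicate) with mean ± SD of 3 libraries per age, for the 4 called members in the top row and IDH3A, ESRRA and PPARGC1B in the bottom row. In all 7 panels the day 85 points lie above the day 45 points, and replicate 2 is the lowest of the day 85 libraries.

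Complex I, NADH dehydrogenase, is the largest complex and had the most members, 29, none of which was called. Without adjustment, 6 had a p under 0.05, all of them positive, and DESeq2 called 5 higher. The median log2 fold change was 0.30, and 26 of 29 were positive. NDUFS1, NDUFS3, NDUFS7, NDUFV1 and NDUFV2 are core subunits, most of which carry the flavin or the iron-sulfur centres. In 5 of these 5 the day 85 libraries lay above the day 45 libraries, with a median of 0.44. This held for 3 of the 23 accessory subunits, whose median was 0.29, and for 17.4% of all tested genes. This division was made after the values were seen, and the difference between these core subunits and the accessory ones was not tested.

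NDUFS7, which holds the last iron-sulfur centre before ubiquinone, had the largest log2 fold change of complex I. It was at 64.4, 75.9 and 60.5 CPM at day 45, against 156.0, 87.4 and 101.9 CPM at day 85. Replicate 1 of day 85 was far above the other libraries, and the log2 fold change was 0.78 (SE 0.23, edgeR adjusted p = 0.0855). NDUFV1, the flavoprotein that binds NADH, was at 103.2, 101.0 and 90.6 CPM at day 45, against 167.7, 132.0 and 127.0 CPM at day 85. It had the lowest adjusted p of the complex, 0.0714 by edgeR, with a log2 fold change of 0.53 (SE 0.14). The core subunit NDUFS1 had a log2 fold change of 0.44, and the accessory subunit NDUFS6 of 0.42, both without overlap of the ages. NDUFV1, NDUFS1 and NDUFS6 are named outside the rule for named genes, after their values were seen, and so are NDUFA8, NDUFA11 and NDUFC2 below.

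Among the 23 accessory subunits, replicate 1 of day 85 was the highest library of its age for 22. Replicate 2 exceeded every day 45 library for 5 of the 23, against 35.5% of all tested genes. NDUFA8 was at 45.7, 41.3 and 41.0 CPM at day 45, against 95.0, 38.2 and 68.4 CPM at day 85, and NDUFA11 at 81.3, 75.0 and 68.0 and at 158.2, 71.2 and 102.1 CPM. In both, replicate 2 of day 85 fell within or below the day 45 libraries, and the log2 fold changes of 0.66 and 0.56 had standard errors of 0.31 and 0.28. The 3 complex I members with a negative value were NDUFB10 at -0.12, NDUFS5 at -0.06 and NDUFC2 at -0.70, none called. NDUFC2 averaged 0.98 CPM at day 45, against 0.60 CPM at day 85, so its value rests on few counts. Over complex I as a whole the median in single day 85 libraries was 0.63, 0.00 and 0.18, and without replicate 1 of day 85 the median log2 fold change was 0.09.

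Complex IV, cytochrome c oxidase, combines catalytic subunits encoded by mitochondrial DNA with nuclear ones, several of which exist as a form found in most tissues and a form typical of heart and skeletal muscle. Its 12 tested genes ran from a log2 fold change of -0.41 to 2.32, with a median of 0.37, 10 positive and 1 called. COX7A1, the heart and muscle form of subunit 7A, lies on chromosome 6 from 40921405 to 40922901. Its level was 7.65, 9.59 and 7.13 CPM at day 45, against 61.5, 18.3 and 41.5 CPM at day 85. All day 85 libraries were above those of day 45, and the mean rose from 8.13 ± 1.30 to 40.5 ± 21.6 CPM (SD, n = 3). This was 4.98-fold, a log2 fold change of 2.32 (SE 0.44, edgeR adjusted p = 0.0381). Left-out libraries moved the adjusted p from 0.0013 to 0.165, and it was under the threshold only without replicate 2 of day 85. With all libraries the call was lost in limma-voom (adjusted p = 0.0575) and with the replicate number as a block (adjusted p = 0.0593).

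The other muscle forms did not pass the test. COX6A2, the muscle form of subunit 6A, was at 54.2, 43.1 and 62.7 CPM at day 45, against 211.1, 26.6 and 117.9 CPM at day 85. Replicate 2 of day 85 was the lowest of the 6 libraries, and the log2 fold change of 1.15 had a standard error of 0.67 (edgeR adjusted p = 0.303). COX8H, the heart and muscle form of subunit 8, named after its values were seen, was at 9.0, 4.18 and 10.7 CPM at day 45, against 64.2, 3.47 and 37.1 CPM at day 85. Here too replicate 2 was the lowest library, and the log2 fold change was 2.13 (SE 0.95, edgeR adjusted p = 0.200). Without replicate 2 of day 85 all 3 muscle forms were called higher. COX7A1 was the only one of the 3 whose replicate 2 at day 85 lay above day 45. The summed muscle markers were 3279 CPM in that library, below each day 45 library, and 49527 and 41016 CPM in the libraries where the 3 muscle forms were highest. Their part in the values of the muscle forms was not tested.

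The forms found in most tissues had values near 0 or below. COX7A2, the partner of COX7A1, was at 71.6, 62.8 and 57.7 CPM at day 45, against 56.8, 52.9 and 38.1 CPM at day 85, a log2 fold change of -0.38 (SE 0.18, edgeR adjusted p = 0.211). COX7A2L, a related protein that links complexes III and IV, was at 106.8, 104.2 and 90.4 CPM and at 84.5, 76.1 and 65.7 CPM. These were the 2 members whose day 85 libraries all lay below day 45. For COX7A2L the log2 fold change was -0.41 (SE 0.14) with an adjusted p of 0.110 by edgeR. DESeq2 called it lower with 0.0165, the lowest of its values over the alternatives that kept all libraries, which reached 0.113. COX6A1 was at 155.3, 208.7 and 102.3 CPM at day 45, against 131.1, 231.1 and 120.0 CPM at day 85, with overlapping ages and a log2 fold change of 0.05 (SE 0.34).

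Shares within a pair of forms put these values together. As a percentage of the summed deposited FPKM (fragments scaled to gene length and library total) of both forms, COX7A1 made up 13.3%, 18.0% and 15.1% of COX7A1 and COX7A2 at day 45, and 60.9%, 33.3% and 61.1% at day 85. The mean share was 15.5% ± 2.37 and 51.8% ± 16 (SD, n = 3), and the ages did not overlap. COX6A2 made up 16.8%, 10.7% and 26.2% of COX6A1 and COX6A2 at day 45, and 48.3%, 6.25% and 36.3% at day 85. For COX8H and COX8A, the muscle form accounted for 6.31%, 3.07% and 10.3% at day 45, and 41.4%, 2.55% and 32.1% at day 85. In both of these pairs the ages overlapped, because replicate 2 of day 85 had a lower share than any other library. The shares are given as a description and were not tested.

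**Figure D4:**
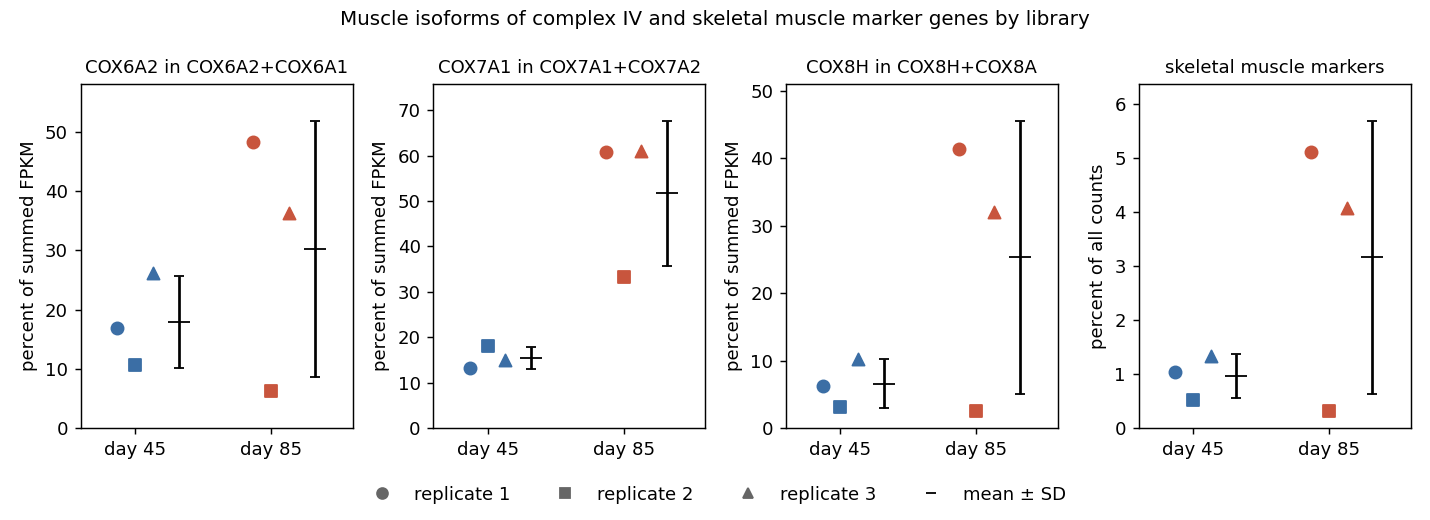
Share of the muscle form in the summed FPKM of a pair of complex IV subunits (first 3 panels, in percent) and share of the skeletal muscle markers in all counts (last panel, in percent), per library with mean ± SD of 3. Replicate 2 of day 85 has the lowest share of COX6A2, COX8H and muscle markers of all 6 libraries, at 6.25%, 2.55% and 0.307%, while its COX7A1 share of 33.3% lies above day 45.

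None of the remaining tested complex IV genes was called by edgeR. COX4I1, the largest nuclear subunit, was at 366.2, 359.5 and 278.4 CPM at day 45, against 502.9, 379.7 and 375.0 CPM at day 85, a log2 fold change of 0.32 (SE 0.18). The day 85 libraries were above those of day 45 by a narrow margin. COX5A, also named after its values were seen, was at 89.1, 72.6 and 87.3 CPM and at 169.0, 91.6 and 121.2 CPM. Its ages did not overlap, with replicate 2 of day 85 nearest to day 45 and a log2 fold change of 0.62 (SE 0.23). COX5B had 0.41 (SE 0.22), with overlapping ages. NDUFA4, named after complex I but known as a subunit of complex IV and counted there, was at 86.9, 76.9 and 81.8 CPM at day 45, against 237.9, 75.1 and 120.5 CPM at day 85. Replicate 2 of day 85 was the lowest of all libraries, and the log2 fold change was 0.82 (SE 0.40). Without the 3 muscle forms the complex IV median was 0.32 over 9 genes, with 0 called by edgeR, 1 positive and 1 negative value at a p under 0.05 before adjustment, and the same numbers called by DESeq2. The median over all members was then also 0.32, over 58 genes with 3 called.

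Complex V, the ATP synthase, contained the members with the highest FPKM. It had a median log2 fold change of 0.31, with 10 of 11 positive and 0 called. Before adjustment 2 had a p under 0.05, both positive, and DESeq2 called 2 higher. ATP5B, the catalytic beta subunit, was at 698.0, 645.2 and 605.1 CPM at day 45, against 997.4, 746.9 and 911.1 CPM at day 85. The ages did not overlap, and the log2 fold change was 0.45 (SE 0.16, edgeR adjusted p = 0.124). ATP5A1, the alpha subunit that alternates with beta in the catalytic head, was at 523.8, 461.3 and 516.5 CPM and at 693.9, 542.8 and 630.9 CPM. Its log2 fold change was 0.31 (SE 0.14). ATP5D, the delta subunit of the central stalk, had 0.44 (SE 0.15, edgeR adjusted p = 0.120), and in both the ages did not overlap either.

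ATP5G1 and ATP5G3 encode the same mature c subunit of the proton-driven ring, from different genes. ATP5G1 had a log2 fold change of 0.39 (SE 0.17) without overlap, and ATP5G3 of 0.14 (SE 0.16) with overlap. ATP5G1 accounted for 35.4% to 39.4% of their summed FPKM at day 45 and for 39.0% to 42.5% at day 85. ATP5L, the g subunit of the membrane part, had the only negative value of complex V, -0.01 (SE 0.14). ATP5S carries an ATP synthase name but is not a structural subunit of the enzyme, and had the largest value among the ATP5 names at 0.54 (SE 0.25), with ages that overlapped by 1 library. Without ATP5S the median of complex V was 0.29. In single day 85 libraries the complex V median was 0.62, -0.00 and 0.29, and replicate 2 was the lowest of the age for 11 of 11 members.

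Levels can be compared between genes on the FPKM scale, here as the mean over all 6 libraries. The highest members were ATP5B at 325.4, ATP5A1 at 322.1 and ATP5D at 309.2 FPKM. Among the complex IV members, NDUFA4 at 229.1, COX4I1 at 227.5 and COX5B at 207.6 FPKM were highest. In complex I these were NDUFS5 at 182.7, NDUFA13 at 135.2 and NDUFS7 at 112.8 FPKM. Median levels were 147 FPKM for complex V, 138 for complex IV, 119 for complex III, 67.0 for complex II, 64.3 for complex I and 56.4 for CYCS. On this scale none of the 4 called genes was the most abundant of its complex. UQCRFS1, at 23.4 FPKM, was the lowest of complex III, SDHA, at 63.7 FPKM, stood below SDHB and SDHD, and COX7A1 was at 74.3 FPKM. These ranks depend on the gene lengths used for FPKM. In mean CPM, UQCRFS1 stood above UQCRQ and UQCR10 at both ages, and SDHA above SDHB and SDHD.

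The genes are spread over the genome, on 18 chromosomes and, for 4 of them, on unplaced scaffolds, in the coordinates of the deposited table. Chromosome 2 held the most, 9. ATP5D and NDUFS7, 187801 bases apart on chromosome 2, had log2 fold changes of 0.44 and 0.78. The 3 members on the X chromosome, COX7B, NDUFA1 and NDUFB11, had log2 fold changes of 0.32, 0.23 and 0.43, and none was called.

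A further 9 subunit rows carry no name in the deposited table and were named by their gene ID, so they are not among the 63. None of the 9 was called, 6 were positive and 3 negative, and their median log2 fold change was 0.23. Before adjustment 3 reached p under 0.05, each positive, while DESeq2 called 3 higher and 1 lower. UQCRC2, the other core protein of complex III, had 0.52 (SE 0.14, edgeR adjusted p = 0.0672), and the complex I subunits NDUFA2 and NDUFA9 had 0.53 and 0.44, all without overlap of the ages and all named after their values were seen. NDUFA4L2, a relative of NDUFA4 known to be induced in low oxygen, ran the other way: it was at 101.7, 70.1 and 111.7 CPM at day 45, against 22.1, 74.4 and 38.8 CPM at day 85. Its log2 fold change was -1.07 (SE 0.44, edgeR adjusted p = 0.175), and replicate 2 of day 85 fell within the day 45 range. COX8A, the partner of COX8H, had -0.25 (SE 0.24).

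The factors that assemble the complexes were not called in either direction. Of the assembly lists, 12 genes were tested for complex I, 4 for complex II, 6 for complex III, 15 for complex IV and 2 for complex V. Their medians were 0.08, -0.10, 0.03, 0.17 and 0.23. A p under 0.05 before adjustment was reached by 1 complex I factor and 1 complex IV factor, both positive, and DESeq2 called 1 higher in each of these lists. ECSIT, an abundant complex I factor, was at 49.3, 42.0 and 45.3 CPM at day 45, against 84.6, 47.5 and 72.5 CPM at day 85. SDHAF2, which attaches the flavin to SDHA, was at 44.0, 40.9 and 38.6 CPM at day 45, against 33.5, 33.9 and 35.8 CPM at day 85. Its day 85 libraries thus lay below those of day 45, as for 17.6% of all tested genes, while SDHA itself rose. SDHAF2 was not called, with a log2 fold change of -0.26 (SE 0.11, edgeR adjusted p = 0.178).

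Among 13 tested regulators of mitochondrial biogenesis, 2 were called higher and 0 lower, beside 3.90% and 2.66% of all tested genes. The median was -0.00, with 6 positive and 7 negative values. Before adjustment 3 positive values and 1 negative had a p under 0.05, and DESeq2 called 3 higher. PPARGC1B, a coactivator of mitochondrial and oxidative genes, was at 8.76, 5.34 and 9.36 CPM at day 45, against 31.5, 23.1 and 36.5 CPM at day 85. The ages were far apart in every library, and the log2 fold change was 1.95 (SE 0.27, edgeR adjusted p = 0.0213). ESRRA, a nuclear receptor that binds many genes of the respiratory chain, was at 52.0, 49.6 and 45.4 CPM at day 45, against 76.6, 71.1 and 74.8 CPM at day 85. The day 85 libraries were close together, replicate 2 included, and the log2 fold change was 0.60 (SE 0.11, edgeR adjusted p = 0.0340). PPARGC1A, the better known relative of PPARGC1B, had 1.48 (SE 0.60), NRF1 had -0.08 (SE 0.13) and TFAM, the packaging protein of mitochondrial DNA, had -0.41 (SE 0.35). These 3 were not called and were named after their values were seen.

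The citrate cycle and pyruvate oxidation, which supply NADH and succinate, had 18 tested genes, 18 positive, 2 called higher and 0 lower. These calls stand beside 3.90% higher and 2.66% lower over all tested genes, and the median of the list was 0.37. Before adjustment 8 had a p under 0.05, all positive, and DESeq2 called 6 higher. In 10 of 18 all day 85 libraries lay above day 45, against 17.4% of all tested genes. IDH3A, the catalytic subunit of the NAD-linked isocitrate dehydrogenase, was at 56.1, 57.0 and 56.5 CPM at day 45, against 111.4, 76.3 and 98.2 CPM at day 85, a log2 fold change of 0.75 (SE 0.16, edgeR adjusted p = 0.0428). Every day 85 library was above every day 45 library. The calls of PPARGC1B, ESRRA and IDH3A were kept without replicate 2 of day 85 and lost without any other single library, with adjusted p of up to 0.117, 0.142 and 0.175. With all libraries, IDH3A was also lost in 4 fits, with adjusted p from 0.0603 to 0.0667, and ESRRA in 1, the block by replicate number, with 0.0565.

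Fatty acid oxidation, with 15 tested genes, had a median of 0.50 and 0 called. Of these genes, 6 had a p under 0.05 before adjustment, all positive, and DESeq2 called 4 higher. The carriers that exchange ADP, ATP and phosphate across the inner and outer membranes, with related proteins, had 9 tested genes. Their median was 0.63, with values from -0.24 to 4.52, and 0 were called. The largest values were those of UCP3 (4.52), CKMT2 (2.93) and SLC25A4 (2.59), named after their values were seen. The most abundant genes of the list, SLC25A6 and SLC25A3, had 0.01 and 0.27. Before adjustment 4 positive values had a p under 0.05, and DESeq2 called 3 higher. In glycolysis, the route that makes ATP without oxygen, 19 genes were tested, with values from -0.79 to 2.73. Of these, 13 had negative values and the median was -0.16. None was called by edgeR, whereas 1 positive and 4 negative values had a p under 0.05 before adjustment, and DESeq2 called 1 higher and 4 lower. Without replicate 2 of day 85, 10 citrate cycle, 7 fatty acid oxidation, 5 carrier and 3 glycolysis genes were called higher, beside 12.3% of all tested genes. In the same fit 2 glycolysis genes were called lower, beside 1528 of 15271 tested genes. The differences between these lists were not tested.

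**Figure D5:**
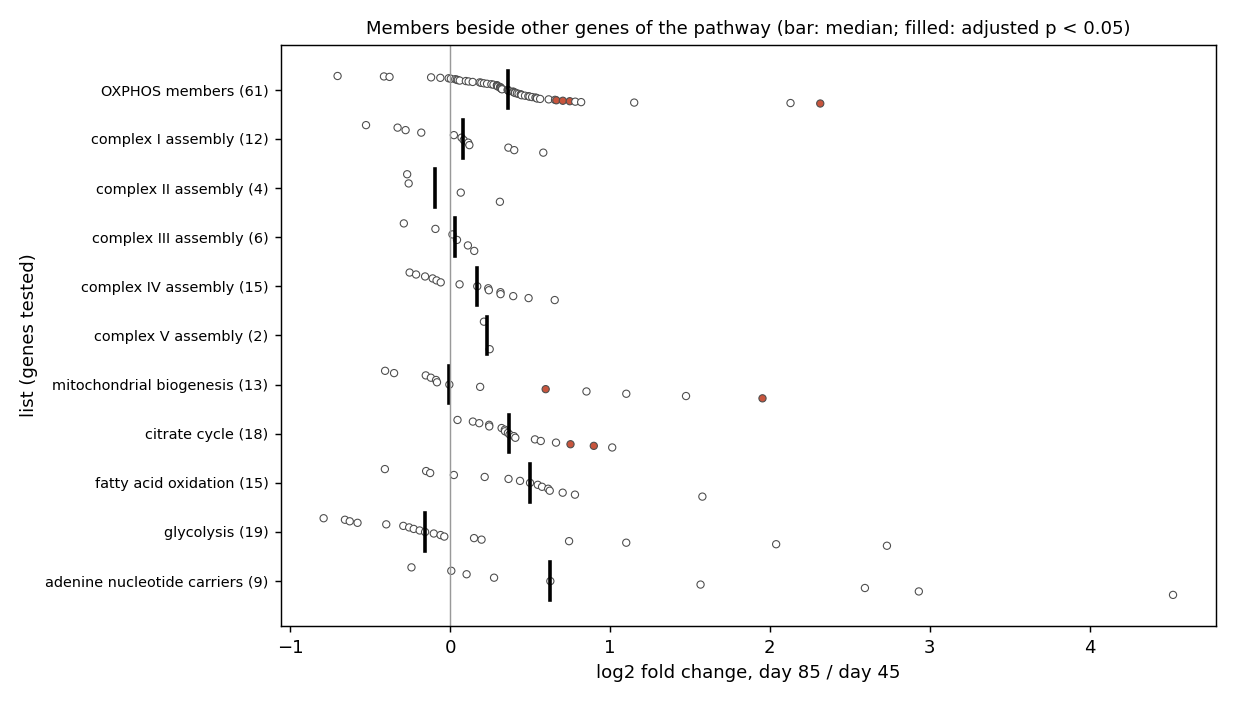
Log2 fold change of day 85 over day 45 (x axis) of each tested gene in the 61 members and in lists of other genes of the pathway (rows, number tested in brackets), with the median as a black bar and called genes filled. The medians of the members (0.36), the citrate cycle (0.37) and fatty acid oxidation (0.50) lie right of 0, those of the assembly lists between -0.10 and 0.23, and that of glycolysis at -0.16.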

How the data were processed

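Per the file headers, the table that the authors deposited gives 6 libraries as read counts and as FPKM. Ribosomal RNA was removed and the second cDNA strand degraded, per the labels' protocols, and the submitters' processing notes name HISAT2. For the counting program, its strand setting and the genome build, nothing is stated in the labels or headers, so reads of overlapping or near-identical genes may be split or shared. For 10748 genes with at least 50 counts, FPKM equalled the count over the library total and a factor per gene, within 0.0015%.

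The test was edgeR 4.0.16 on counts, run in R 4.3.3 (filterByExpr with a minimum count of 10, TMM, robust quasi-likelihood F test, age as the only factor), with Benjamini-Hochberg adjustment over all 15022 tested genes and a threshold of 0.05. The standard error is the log2 fold change over the square root of F. limma 3.58.1 and DESeq2 1.42.0 were alternatives. The script was tested on simulated data. Levels are TMM-normalised CPM, and FPKM served for levels between genes and for shares. Total counts of 12546729 to 16559616 make 1 count worth under 0.1 CPM.

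The members and lists were chosen with earlier results of these data known. Genes named are those called, the 3 most abundant by FPKM in each complex, its largest rise and fall averaging at least 1 CPM, the isoform families and CYCS, up to 4 called or otherwise the 2 most abundant genes of each other list, and others where stated. Some genes that enter the counts are not reported here by name. No promoter or protein sequence was used here. Same-numbered libraries were not paired: their deviations correlated at 0.013, 0.25 and 0.04.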

Additional observations from a re-analysis of the deposited data

How the results depend on the processing

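Of the alternatives that kept all 6 libraries, RLE and upper-quartile scaling, scaling without muscle markers and no filter called 3 members, with SDHA lost at adjusted p of 0.0507, 0.0503, 0.0524 and 0.0539. A 1 CPM filter called 4, and so did leaving out the mitochondrial chromosome rows, an alternative added after seeing the data. Library totals without TMM called 1 (and, of all genes, 438 higher and 579 lower, against 586 and 400), limma-voom 2, limma-trend on log2(FPKM + 0.1) and on log2(FPKM + 1) 1 each, and DESeq2 14 higher and 1 lower. Over all genes DESeq2 called 2052 higher and 1764 lower, and limma-trend on log2(FPKM + 1) 614 lower. With the replicate number as a block, 0 members were called higher (20 higher at an unadjusted p under 0.05) and 217 genes were lower, but the numbers are not known to pair the libraries and 2 of the 3 same-number correlations were under 0.1. The cause of these differences was not tested.

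Leaving out 1 library at a time gave 0 to 24 members higher, 0 to 1884 genes higher and 0 to 1528 lower. The highest counts came without replicate 2 of day 85, and the next highest were 93 genes higher and 25 lower without replicate 3 of day 85. The median of the members ran from 0.15 to 0.48. The sign changed in at least 1 of these fits for 13 of 61 members, 10 of them without replicate 1 of day 85. They include ATP5G3 (-0.0192 to 0.21), ATP5L (-0.14 to 0.0737), COX6A1 (-0.30 to 0.32), COX6C (-0.15 to 0.18), NDUFA13 (-0.0352 to 0.20) and NDUFS5 (-0.17 to 0.0375). Adding rows of one name together was not run, since each name had 1 row. With 3 libraries per age, and a median standard error of 0.18 over the members, differences of the size seen for most members are not separated from the spread between libraries.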

Other observations

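The 13 protein-coding rows of the mitochondrial chromosome, which encode further subunits of complexes I, III, IV and V, could not be set beside the nuclear genes. Of these rows, 10 were at 0 in at least 1 library and 4 in at least 4 libraries. For 6 rows a library at 0 stood beside a library of the same table with at least 1000 counts. COX1 had 301, 200 and 0 counts at day 45 and 0, 257383 and 0 at day 85. ATP6 had 102420, 92581 and 0 counts at day 45 and 0 in all 3 libraries of day 85. CYTB had 95170, 83237 and 455 counts at day 45 and 13, 72907 and 81674 at day 85. Replicates of the same age ranged from 0 to 257383 counts in COX1, and no fold change is given for these rows. Together they took 0.376% to 2.21% of the counts of a library. The cause was not tested.

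COX7C and COX8C were the members left out by the filter on low counts. COX7C, a subunit of complex IV found in all tissues, had 57 counts over the 6 libraries, or 0.33 to 1.31 CPM. Its row lies on an unplaced scaffold, from 33933 to 34304. Whether that row counted all reads of the gene was not tested. COX8C, the testis form of subunit 8, had 0 counts in each library.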
